A study of Mus musculus with 3 samples.

Results

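*Tnf*, *Ltb*, *Tnfsf4*, *Tnfsf9*, *Tnfsf10*, *Tnfsf12*, *Tnfsf13b*, *Tnfsf14* and *Cd70* encode ligands of the TNF superfamily. These 9 genes were chosen by name among the 32285 genes of the count matrices, and each was counted in single cells sorted from mouse tumours. TNF superfamily ligands act as trimers, mostly anchored in the cell membrane, and some are also cleaved to a soluble form; their receptors recruit TRAF adaptors or death domains and switch on NF-kB or cell death. On activated dendritic cells, *Cd70*, *Tnfsf4* (OX40 ligand) and *Tnfsf9* (the ligand of Tnfrsf9) give co-stimulation to T cells. *Tnf* and *Ltb* act in inflammation and in the build-up of lymphoid tissue, *Tnfsf10* (TRAIL) can trigger cell death, and *Tnfsf13b* (BAFF) keeps B cells alive.

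The study profiled dendritic cells from MCA205 tumours that carried LifeAct and ovalbumin, taken on day 5 after injection. Within lineage-negative CD11c+ MHC-II+ CD88- cells, with NK1.1 and CD3e among the lineage markers gated out, pre-cDCs, cDC1s and cDC2s were sorted apart and then combined in chosen numbers. There were 3 libraries, 1 per genotype: WT, *sGsn-/-* mice, which lack secreted gelsolin, and *sGsn-/- Clec9a-/-* mice, which also lack the receptor Clec9a. Cells of each genotype came from a single pool of male and female mice, 6 to 20 weeks old, whose sex ratio differed between the pools. Because each genotype is a single pool, genotype, pool and library cannot be told apart, and no test between genotypes was possible. The libraries held 12763, 8173 and 9273 barcodes with 176578136, 109270958 and 113411930 unique molecular identifiers (UMIs), in the order WT, *sGsn-/-*, *sGsn-/- Clec9a-/-*, which is kept in every series of 3 values below. The deposited table assigned 2316, 1712 and 1778 of these barcodes to conventional type 1 dendritic cells (cDC1s) in clusters 0 to 11, 5806 cells in all. Their median depth was 14092, 14150 and 12231 UMIs.

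The targeted gene followed the labels. *Clec9a* reached 168, 168 and 0.0931 CPM (UMIs of the gene per 1000000 UMIs of the same cells) in the cDC1s of the table, the last from 2 UMIs. In the WT and *sGsn-/-* libraries it was 4.07 and 2.13 CPM in NK cell-like barcodes outside the table. In cDC2-like barcodes it was 2.26 and 3.55 CPM. Shares of cells with a UMI are given below with no background share taken off. Deletion of the secreted form of gelsolin could not be checked, since 3′ counts of *Gsn* do not separate its transcripts. Between any 2 libraries 26 to 28 barcodes were shared, of which 2 to 3 were cDC1s of the table in both.

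Clusters 0, 2, 3, 5 and 6 are called resting and clusters 4 and 1 early. Cluster 8 carried the genes of mature dendritic cells: its 7 markers of activated cells summed to 7306, 6218 and 4044 CPM, led by *Ccr7*, *Ccr7* and *Ccl22*, beside 45.1, 61.3 and 35.5 CPM in cluster 9. Comparisons of clusters were run on UMIs summed per library and cluster, by the quasi-likelihood F-test of edgeR with p adjusted over all genes (Benjamini-Hochberg), and those with resting cells share the same resting sums. A fitted log2 change weighs the 5 resting clusters equally on the log scale, whereas a ratio with a counting interval is of pooled UMIs, so they can differ in size. The clusters had been called on these same counts, so an adjusted p describes how alike the libraries were, not whether a cluster exists. Of the 9 ligands, 7 passed the filter on low counts; *Tnfsf13b* and *Tnfsf14* did not.

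*Tnf* and *Tnfsf9* were higher than in resting cells in both cluster 8 and cluster 9, and *Cd70*, *Tnfsf4* and *Ltb* were higher in cluster 8. In cluster 8, 6 of the 7 ligands tested were higher than in resting cells and none was lower, where 27.0% of 9606 genes were called higher and 21.2% lower. The call of *Tnfsf10*, 1 of the 6, was lost without the *sGsn-/-* library and without the cells that carried NK or T cell marker UMIs. The median log2 change of the 7 was 3.11, also with the gene at 0 in resting cells set to its bound, beside −0.01 over all genes. *Cd70* and *Tnfsf4* passed the filter through cluster 8, which held 131 of 133 and 42 of 51 of their UMIs. *Tnfsf13b* and *Tnfsf14*, both with 0 UMIs in cluster 8, did not pass. The count and the median in cluster 8 are thus partly set by the filter and describe these 7 genes only. In cluster 9, 2 of 7 were higher and none lower, with 4.83% of all genes called higher and 1.17% lower; the median was 0.45, or 0.50 with genes at 0 set to their bounds, beside 0.01. Without scaling factors the counts of all genes called turned from 2598 higher and 2039 lower to 1894 and 3280 in cluster 8, with a shift of the median over all genes to −0.27, and from 464 and 112 to 394 and 169 in cluster 9. No ligand called lost its call or its direction with that scaling.

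**Figure D1:**
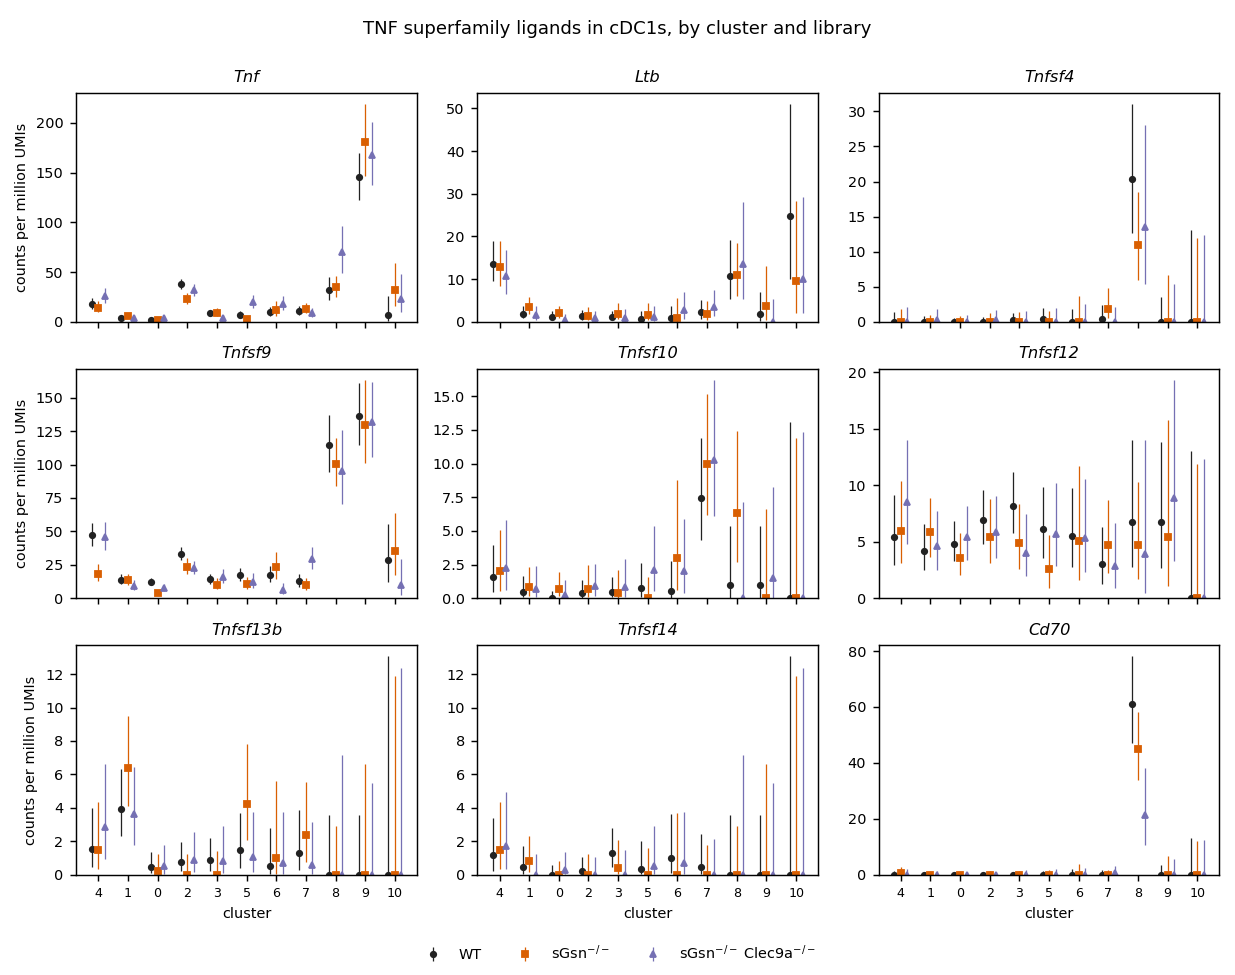
Level of each ligand (CPM, y axis) in the cDC1s of each cluster (x axis, early clusters first, then resting, then 7 to 10), 1 point per library with the exact Poisson 95% interval, which covers counting error only. *Cd70* and *Tnfsf4* stood highest in cluster 8, *Tnf* in cluster 9 and *Tnfsf10* in cluster 7, while *Tnfsf9* was high in both 8 and 9.

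*Cd70*, the ligand of Cd27, was all but limited to cluster 8, which held 131 of its 133 UMIs in cDC1s (98.5%). Its level there was 61.0, 44.9 and 21.3 CPM, from 63, 57 and 11 UMIs, and the resting cells had none. Every library was above its resting cells, and the *sGsn-/- Clec9a-/-* library was the lowest of the 3. *Cd70* was 743-fold higher in cluster 8 than in resting cells, with the resting group set to a floor of 3 counts (adjusted p 3.1e-15, 3 of 3 libraries). The counting interval of the ratio, with resting cells at 0, began at 596. A UMI of *Cd70* was seen in 18.8% of cluster 8 cells (median depth 10867 UMIs) and, outside the table, in 0.643% of NK cell-like (median depth 6284), 0.298% of cDC2-like (13453) and 0.141% of monocyte or macrophage-like barcodes (15034). Thinning took cells down to 3900 UMIs and left out shallower ones, so that 198 of 255 cells of cluster 8, 2444 of 3265 NK cell-like, 3535 of 3693 cDC2-like and 2719 of 2843 monocyte or macrophage-like barcodes remained. In these the shares were 10.6%, 0.368%, 0% and 0%. The highest shares outside the table were 6.34% of activated cDC-like (1.55% thinned) and 1.37% of T cell-like barcodes (0.667% thinned).

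*Tnfsf4* also lay mainly in cluster 8, with 42 of 51 UMIs (82.4%). It stood at 20.3, 11.02 and 13.6 CPM there, from 21, 14 and 7 UMIs, against 3 UMIs in all resting cells together. The groups did not overlap. The ratio was 238 with a counting interval of 76.1 to 1202 (adjusted p 2.4e-12, 3 of 3 libraries). *Tnfsf4* had a UMI in 9.80% of cluster 8 cells, 2.17% of NK cell-like, 4.82% of cDC2-like and 0.528% of monocyte or macrophage-like barcodes, and in 4.04%, 1.31%, 1.81% and 0.184% after thinning. Activated cDC-like barcodes lay above cluster 8, with 21.0%, or 12.4% thinned. Cluster 9 and cluster 10 had 0 UMIs of it, which at 3 counts allows up to 1.85% and 3.95% of their cells to hold a UMI.

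*Tnfsf9* was high in both clusters. It reached 114, 101 and 95.1 CPM in cluster 8 and 136, 130 and 132 in cluster 9, where the resting cells pooled had 19.0, 11.97 and 13.5. All 3 libraries of either cluster stood far above every resting value, and cluster 9 lay above cluster 8 in each library. The rise over resting cells was 3.11 on the log2 scale in cluster 8 (adjusted p 6.4e-15, 3 of 3 libraries) and 3.26 in cluster 9 (adjusted p 1.9e-14, 3 of 3 libraries), and the difference between the clusters did not pass the test. A UMI was present in 36.9% of cluster 8 cells and 43.2% of cluster 9 cells, and in 4.84% of NK cell-like, 53.5% of cDC2-like and 43.1% of monocyte or macrophage-like barcodes. Thinned, these shares were 25.3%, 28.5%, 2.62%, 34.5% and 22.7%. Activated cDC-like barcodes had 49.3% (27.8% thinned) and cycling monocyte or macrophage-like barcodes, at a median depth of 22323, had 59.3% (28.5% thinned). Of the cycling monocyte or macrophage-like barcodes, 15.4% were among the highest doublet scores.

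*Tnf*, the founding cytokine of the family, had its peak in cluster 9. Its level there was 145, 180 and 167 CPM, from 151, 100 and 113 UMIs, beside 32.0, 34.6 and 69.9 in cluster 8 and 13.6, 8.62 and 14.6 in resting cells. Cluster 9 did not overlap with any other cluster in any library. In pooled UMIs, *Tnf* in cluster 9 was 12.9-fold above resting cells, with a counting interval of 11.2 to 14.7. The fitted log2 change, with the resting clusters weighed equally, was 4.22 (adjusted p 1.6e-18, 3 of 3 libraries). In cluster 8 the pooled ratio was 3.22 (2.61 to 3.94) and the fitted log2 change 2.44 (adjusted p 1.4e-08, 3 of 3 libraries). The resting clusters were themselves uneven for *Tnf*: cluster 2 had 37.7, 22.6 and 31.6 CPM and cluster 0 had 1.55, 1.56 and 3.43. Detection of *Tnf* was 48.1% of cells in cluster 9 (median depth 14033) and 21.96% in cluster 8, beside 5.79% of NK cell-like, 27.0% of cDC2-like and 38.2% of monocyte or macrophage-like barcodes. When thinned, the shares were 22.8%, 13.1%, 3.07%, 12.4% and 16.4%. Cycling monocyte or macrophage-like barcodes had 47.0% (19.0% thinned), and 19 of the 45 mast cell or basophil-like barcodes had a UMI.

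*Ltb*, whose product pairs with lymphotoxin alpha at the cell surface and binds Ltbr, followed another order. It was highest in cluster 10 (24.8, 9.67 and 10.04 CPM from 7, 3 and 3 UMIs), cluster 4 (13.6, 12.9 and 10.8) and cluster 8 (10.7, 11.02 and 13.6). These 3 clusters overlapped, and each lay above the resting cells pooled, which had 1.14, 1.71 and 0.971 CPM. Leaving out the highest doublet scores took 9.38% of the cells of cluster 4. *Ltb* in cluster 4 then fell from 80 to 36 UMIs and from a mean of 12.4 to 6.42 CPM, while cluster 8 kept all 32 UMIs. The libraries behind the mean of 6.42 ranged from 3.28 to 12.3 CPM. *Ltb* was 3.37 higher on the log2 scale in cluster 8 than in resting cells (adjusted p 4.6e-10, 3 of 3 libraries). *Ltb* had a UMI in 11.8% of cluster 10 cells (median depth 11132.5), 10.2% of cluster 8 cells, 40.8% of NK cell-like, 52.3% of cDC2-like and 7.88% of monocyte or macrophage-like barcodes, and in 8.57%, 5.05%, 34.3%, 28.1% and 2.43% when thinned. The share was highest in T cell-like barcodes, at 81.3%, or 62.0% thinned. Lymphocytes carried far more *Ltb* than any cDC1 cluster, as did cDC2-like and activated cDC-like barcodes (means of 101 and 78.5 CPM). The cDC1 gene *Clec9a* was 80.4 and 92.9 CPM in the WT and *sGsn-/-* cells of cluster 8. It was 189 and 187 CPM in resting cells of these libraries. Whether cDC2s lie in cluster 8 was not tested. The 7 NK cell markers were read in cluster 8. They summed to 19.4, 137 and 38.8 CPM with 4, 6 and 3 of 7 genes seen, led by *Gzma*, *Gzma* and *Klre1*, beside 7269, 8498 and 8847 CPM in NK cell-like barcodes. *Eomes*, *Ncr1* and *Klrb1c* were at 0 in the WT and *sGsn-/- Clec9a-/-* cells of cluster 8, where *Prf1* was also at 0 in the *sGsn-/- Clec9a-/-* cells, as it was in the *sGsn-/-* cells. The 6 T cell markers summed to 3.88, 14.96 and 3.88 CPM with 3, 5 and 2 of 6 seen, led by *Trac*, *Cd3g* and *Trac*. Leaving out the 7 cells of cluster 8 with 3 or more UMIs of NK and T cell markers left 28 of its 32 *Ltb* UMIs, and the call held.

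Direct comparison of cluster 8 with cluster 9 gave 3 of 7 ligands higher and 1 lower, where 19.6% of all genes were called higher and 15.5% lower. Of all genes, 1881 were higher and 1487 lower, or 1409 and 2216 without scaling factors, with the median then at −0.21. The median log2 difference of the 7 ligands was 1.98, beside 0.00 over all genes. *Cd70* and *Tnfsf4*, both among the higher ligands, passed the filter through cluster 8. This count and this median are therefore partly set by the filter as well. Cluster 9 had 0 UMIs of *Cd70* and *Tnfsf4* and was set to a floor of 3 counts. On that floor *Cd70* was 35.2-fold higher (adjusted p 5.6e-08, 3 of 3 libraries) and *Tnfsf4* 11.3-fold higher (adjusted p 1.2e-05, 3 of 3 libraries). The counting intervals of these ratios, with cluster 9 at 0, began at 28.2 and 8.78. *Ltb* was 2.87 higher on the log2 scale (adjusted p 0.000201, 3 of 3 libraries), from 32 UMIs against 4, and thinning to 3900 UMIs gave 3.04 with an adjusted p of 0.0582. *Tnf* fell by 1.78 from cluster 9 to cluster 8 (adjusted p 3.1e-06, 3 of 3 libraries). Within single cells of cluster 8, 17 of 21 pairs of ligands were seen together in more cells than the product of their shares gives, with cells of unequal depth. *Tnfsf9* and *Cd70* were seen together in 31 cells, where the product of their shares gives 17.7, and *Tnf* and *Tnfsf4* in 1 cell, where it gives 5.49. In cluster 9, *Tnf* and *Tnfsf9* were seen together in 43 cells, beside 33.7 from the product, where 4 of 10 pairs lay above it. The named pairs were picked after their values were seen.

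*Tnfsf10* had its highest level in cluster 7. Its level there was 7.46, 9.95 and 10.3 CPM, from 17, 21 and 18 UMIs, against 0.331, 0.669 and 0.971 in resting cells. The libraries lay close together and did not overlap with resting cells. In cluster 7, 2 of 7 ligands were higher than in resting cells, where 16.0% of all genes were higher, and the median of the 7 was 1.04 beside −0.01. Of all genes 1534 were higher and 814 lower, or 1067 and 1628 without scaling factors, with the median then at −0.14. *Tnfsf10* was 15.1-fold higher, with a counting interval of 9.46 to 24.5 (log2 change 3.83, adjusted p 4.0e-10, 3 of 3 libraries). Its share of cells with a UMI in cluster 7 was 10.2% at a median depth of 14254 UMIs, and 2.68% thinned. The share was 19.0% in NK cell-like, 1.06% in cDC2-like and 1.48% in monocyte or macrophage-like barcodes, and 10.5%, 0.311% and 0.368% thinned. It was 49.2% in cycling NK cell-like (median depth 23599, 17.8% thinned) and 22.3% in T cell-like barcodes (9.67% thinned). Of the cycling NK cell-like barcodes, 18.8% were among the highest doublet scores. The other call, *Tnfsf4*, rested on 5 UMIs in 2 cells against 3 UMIs in resting cells (ratio 13.0, counting interval 2.53 to 83.7, adjusted p 0.0142, 2 of 3 libraries). Of the 5 UMIs, 4 came from the *sGsn-/-* library. Without that library the log2 change was 1.40 and the adjusted p 0.522.

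*Tnfsf10* was also called higher in cluster 8 (log2 change 2.42, adjusted p 0.00514, 2 of 3 libraries), from 9 UMIs in 4 cells, with 6 UMIs in 1 cell. Of the 9 UMIs, 8 came from the *sGsn-/-* library. Without that library the log2 change was 0.35 with an adjusted p of 0.869. With the 7 cells that carried NK or T cell marker UMIs left out, 2 UMIs were left, and the log2 change was 0.49 with an adjusted p of 0.72. The *sGsn-/-* cells of cluster 8 were also those with the most NK cell marker UMIs, at 137 CPM.

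*Tnfsf12* (TWEAK), the ligand of Tnfrsf12a, was not called in clusters 7, 8 or 9. It had 6.78, 4.72 and 3.88 CPM in cluster 8, 6.72, 5.41 and 8.88 in cluster 9, and 6.30, 4.16 and 5.31 in resting cells. The groups overlapped. In cluster 10, 1 of 7 ligands was higher, beside 10.6% of all genes, and 1 of 7 lower, beside 7.08%, and no median is given because 4 of the 7 had 0 UMIs in cluster 10. The lower one was *Tnfsf12*, with 0 UMIs in the 76 cells (adjusted p 0.0169, 3 of 3 libraries). It was 1.61-fold lower with cluster 10 set to a floor of 3 counts. The counting interval of its ratio to resting cells was 0 to 0.769. No leave-out of a library kept the call of *Tnfsf12* (adjusted p 0.0655 to 0.118). The higher one was *Ltb*, by 3.48 on the log2 scale (adjusted p 5.4e-06, 3 of 3 libraries).

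Early cells had 2 of 7 ligands higher than resting cells, where 24.1% of all genes were higher, and a median of 0.60, or 0.40 with the gene at 0 set to its bound, beside 0.00. *Ltb* had 6.26, 6.74 and 4.98 CPM in early cells, above all resting values, and was 2.07 higher on the log2 scale (adjusted p 2.2e-08, 3 of 3 libraries). Without the highest doublet scores, clusters 1 and 4 kept 24 of 26 and 36 of 80 *Ltb* UMIs, and the log2 change was 1.56 (adjusted p 9.1e-05). *Tnfsf9* had 26.3, 15.2 and 22.6 against 19.0, 11.97 and 13.5 in resting cells, so that the groups overlapped while each library moved the same way. Its log2 change was 0.60 (adjusted p 0.00914, 3 of 3 libraries), and 0.43 with an adjusted p of 0.0601 when the barcodes with the highest doublet scores were left out, or 0.42 with 0.146 when thinned. The rise of *Tnfsf9* lay in cluster 4, with a mean of 37.1 CPM. Cluster 1 had a mean of 12.2, beside 14.8 in resting cells.

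*Tnfsf13b* and *Tnfsf14* did not pass the filter on low counts in cDC1s. *Tnfsf13b* had 111 UMIs and stood highest in cluster 1, with 3.95, 6.37 and 3.60 CPM, and had 0 UMIs in clusters 8, 9 and 10. Resting cluster 5, at 1.04 to 4.25 CPM, overlapped with cluster 1. Its mean of 2.25 lay above the mean of 1.96 in early cluster 4. Early cells had 64 UMIs and resting cells 38, a ratio of 4.62 with a counting interval of 3.05 to 7.10. With no filter on low counts, *Tnfsf13b* was higher in early than in resting cells (log2 change 1.95, adjusted p 1.9e-05). Its share of cells with a UMI in cluster 1 was 5.85%, beside 0.123% of NK cell-like, 2.38% of cDC2-like and 9.29% of monocyte or macrophage-like barcodes, and 1.90% beside 0%, 0.707% and 3.05% when thinned. *Tnfsf14* (LIGHT), a ligand of Ltbr and Tnfrsf14, had 29 UMIs, 14 in early and 14 in resting cells, a ratio of 2.74 with a counting interval of 1.21 to 6.21 (adjusted p 0.0779 with no filter).

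The receptors of these ligands were read on the same sums. *Tnfrsf4*, the receptor for *Tnfsf4*, averaged 142 CPM in cluster 8 and had 0 UMIs in cluster 9, and *Tnfrsf9* averaged 44.1 in cluster 8 against 0.893 in resting cells. Among NK cell-like barcodes *Tnfrsf9* averaged 257, *Cd27* 83.9 and *Tnfrsf1b* 75.6 CPM. In all cDC1s *Tnfrsf1a* averaged 91.0, *Tnfrsf13b* 41.9, *Ltbr* 16.2, *Tnfrsf13c* 7.25, *Tnfrsf14* 1.52 and *Tnfrsf10b* 0.533 CPM, and *Tnfrsf17* had 1 UMI. *Tnfrsf12a* averaged 31.1 in cDC2-like barcodes.

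Of 28 genes of the receptor superfamily 15 were tested in cluster 8 against resting cells, with 7 higher, beside 27.0% of all genes, and 4 lower, beside 21.2%, and a median of 0.65. *Tnfrsf4*, with 434 of its 459 UMIs in cluster 8, passed the filter through that cluster. The largest changes were in *Tnfrsf4* (8.85 on the log2 scale), *Tnfrsf9* (5.99), *Cd40* (5.41), *Fas* (5.04), *Tnfrsf11a* (2.73) and *Tnfrsf21* (−2.26). In cluster 9, where 4.83% of all genes were higher and 1.17% lower, 1 of the 15 was higher (*Cd40*, 3.02) and 1 lower (*Tnfrsf1b*, −1.12, with the call lost when thinned, adjusted p 0.338), with a median of −0.19, or 0.14 with the gene at 0 set to its bound. All 24 genes for TRAFs, adaptors and NF-kB feedback were tested. In cluster 8, 20 of the 24 were higher and none lower, again beside 27.0% and 21.2% of all genes, with a median of 2.30, led by *Relb* (4.56), *Traf1* (3.64), *Cflar* (3.49), *Birc2* (3.36), *Nfkbia* (3.23) and *Map3k14* (2.96). Cluster 9 had 14 of the 24 higher and none lower, beside 4.83% and 1.17%, with a median of 0.89, led by *Nfkbia* (3.45), *Tnfaip3* (3.21), *Birc3* (2.06), *Nfkb1* (1.77), *Relb* (1.77) and *Traf1* (1.74). The paper names *Tnfaip3* among the genes enriched in cluster 9. The lists were also chosen with earlier results of these data known, so these counts are a description only.

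Of 14 genes for shedding or processing of proteins and for control of mRNA, 13 were tested. In cluster 8, 8 were higher and 1 lower, where 27.0% and 21.2% of all genes were, with a median of 0.41: *Zfp36l1* (2.21), *Rhbdf2* (1.56), *Zc3h12a* (1.35), *Sppl2a* (0.69) and the TNF sheddase *Adam17* (0.50, adjusted p 0.0145) were higher and *Zfp36l2* (−1.88) lower. The call of *Adam17* was lost with any library left out (adjusted p up to 0.0944), without scaling factors (0.25, adjusted p 0.225), with no filter (adjusted p 0.0914) and when thinned (adjusted p 0.104), and that of *Rhbdf2* without the *sGsn-/-* library (adjusted p 0.0793). In cluster 9, 4 were higher and 1 lower, where 4.83% and 1.17% of all genes were, with a median of 0.11: *Zc3h12a* (2.21), *Furin* (1.25), *Zfp36* (1.02), which binds AU-rich elements of the *Tnf* mRNA, and *Zfp36l1* (0.75) were higher and *Zfp36l2* (−0.79) lower. Of 9 other ligands of the superfamily only *Tnfsf8* could be tested in the cluster comparisons, and it was not called in clusters 8 or 9.

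Most UMIs of the ligands lay outside the cDC1s of the table, with shares that depend on the numbers of sorted cells combined. These cDC1s held 19.5% of all UMIs but 8.80% of those of *Tnf*, 5.29% of *Tnfsf9*, 6.62% of *Tnfsf4*, 4.46% of *Tnfsf10*, 4.28% of *Tnfsf12*, 11.5% of *Tnfsf13b*, 2.50% of *Tnfsf14* and 1.39% of *Ltb*. *Cd70* was the exception at 47.8% (133 of 278 UMIs). The barcodes outside the table were grouped by a clustering that left out all ligands and receptors of the family, and groups were named from markers. In this fit all 9 ligands passed the filter. Each named group was compared with the cDC1s of the table, so the 3 comparisons share that side, and all calls below had the same direction in 3 of 3 libraries.

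**Figure D2:**
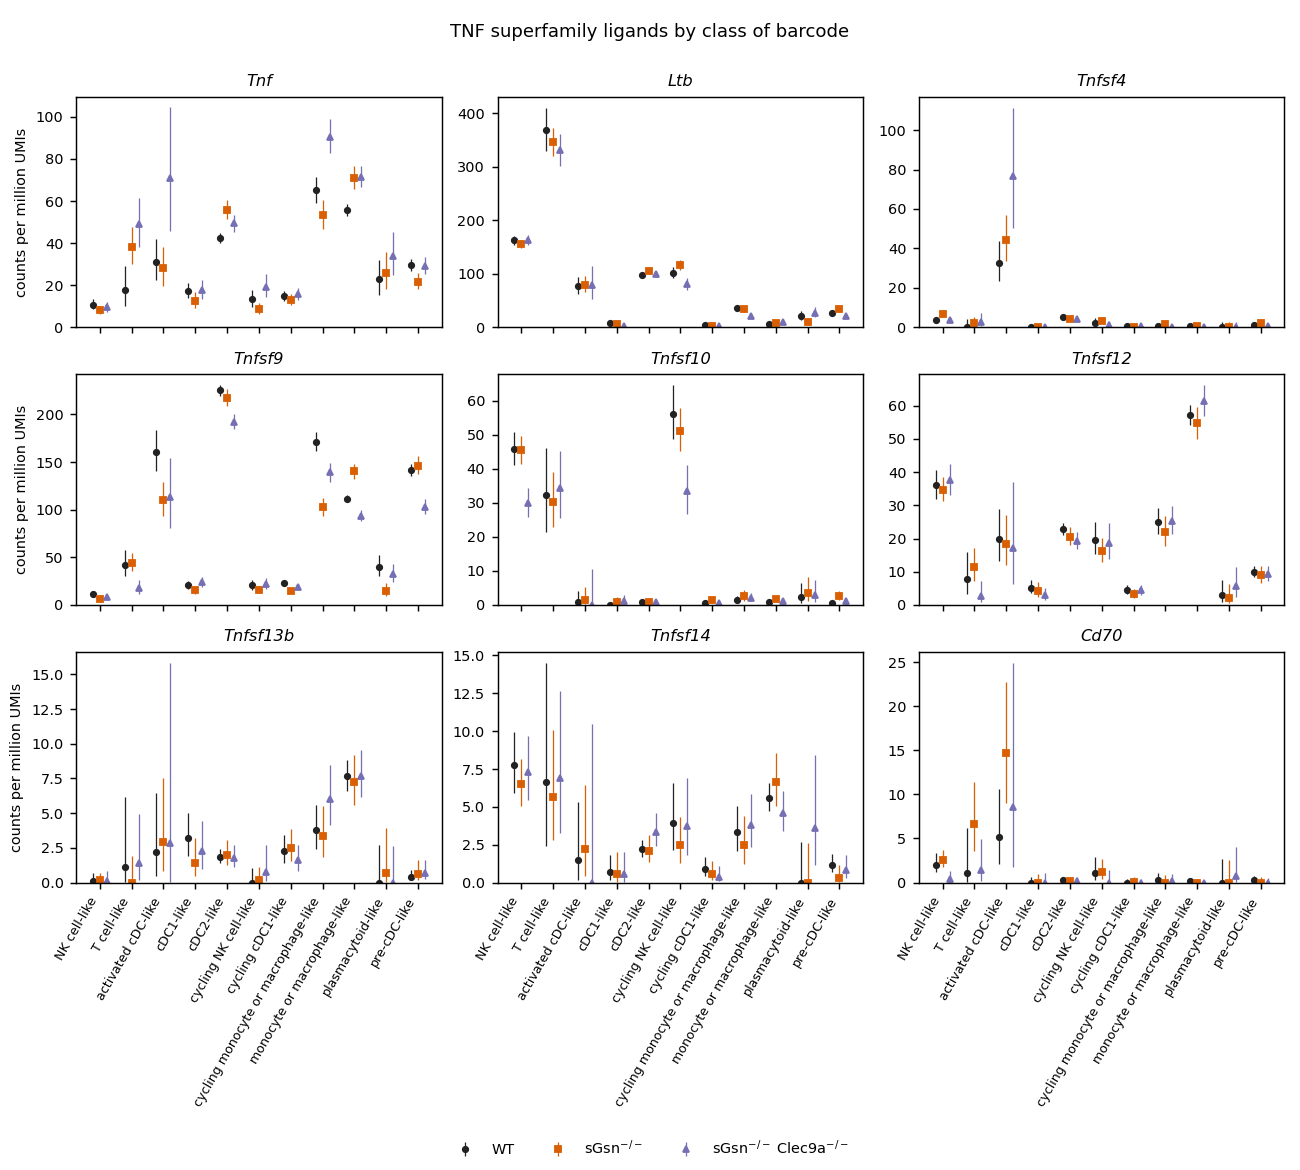
Level of each ligand (CPM, y axis) in named groups of at least 100 barcodes outside the table (x axis), 1 point per library with the exact Poisson 95% interval, which covers counting error only. *Ltb* was highest in T cell-like, *Tnfsf4* in activated cDC-like, *Tnfsf9* in cDC2-like and *Tnfsf12* in monocyte or macrophage-like barcodes.

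The 3265 NK cell-like barcodes (808, 1422 and 1035) had 5 of 9 ligands higher than cDC1s, where 35.4% of 12393 genes were higher, and 3 of 9 lower, where 35.5% were lower. The median of the 9 was 2.51 beside 0.01. Of all genes 4384 were higher and 4396 lower, or 5990 and 3309 without scaling factors, which moved the median of all genes to 0.28. *Ltb* was 162, 156 and 163 CPM in NK cell-like barcodes and 2.82, 3.61 and 2.47 in cDC1s, with no overlap (log2 difference 5.49, adjusted p 1.5e-23). *Tnfsf10* reached 45.8, 45.5 and 29.9 CPM against 0.979, 1.91 and 1.77 (log2 difference 4.48, adjusted p 3.0e-19). The other higher ligands were *Tnfsf14* (3.96, adjusted p 8.8e-14), *Tnfsf4* (2.60, adjusted p 5.7e-08) and *Tnfsf12* (2.51, adjusted p 2.5e-19). *Tnf* fell by 1.17 (adjusted p 3.6e-05), *Tnfsf9* fell by 1.76 (adjusted p 1.4e-07) and *Tnfsf13b*, with 4 UMIs, fell by 3.34 (adjusted p 2.7e-07). *Cd70* was not called, at 2.03, 2.59 and 0.440 CPM.

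The 3693 cDC2-like barcodes had 6 of 9 ligands higher, beside 28.2% of all genes, and 2 of 9 lower, beside 29.0%, with a median of 1.99 against −0.01. *Tnfsf9* stood at 225, 218 and 192 CPM against 27.0, 20.5 and 22.4 in cDC1s, with no overlap (log2 difference 3.15, adjusted p 6.5e-16). *Ltb* stood at 98.3, 106 and 98.4 (5.06, adjusted p 8.4e-22) and *Tnf* at 42.4, 55.7 and 49.3 (1.47, adjusted p 1.2e-08). *Tnfsf4* (2.71, adjusted p 1.3e-08), *Tnfsf14* (2.69, adjusted p 9.0e-09) and *Tnfsf12* (1.99, adjusted p 3.4e-16) were also higher. *Cd70* fell by 2.81 (adjusted p 0.000169), with 12 UMIs in these barcodes. *Tnfsf10* fell by 0.92 (adjusted p 0.0318), but the call was lost without the *sGsn-/-* library (adjusted p 0.156) or the *sGsn-/- Clec9a-/-* library (adjusted p 0.142), and with coarser groups the difference was 0.04 (adjusted p 0.92). *Tnfsf13b* was not called.

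In the 2843 monocyte or macrophage-like barcodes, 6 of 9 ligands were higher, beside 30.3% of all genes, and 1 of 9 lower, beside 30.4%, with a median of 1.82 against −0.01. *Tnfsf12* was highest there among the groups compared, with 57.1, 54.7 and 61.4 CPM against 5.69, 4.63 and 5.26 in cDC1s (log2 difference 3.36, adjusted p 8.3e-23). *Tnfsf13b* had 7.66, 7.22 and 7.70 against 1.22, 1.87 and 1.26 (2.28, adjusted p 1.9e-11). *Tnf* had 55.6, 71.0 and 71.4 against 17.2, 14.9 and 19.7 (1.82, adjusted p 8.3e-11). None of these groups overlapped with cDC1s. Of all genes 3754 were higher and 3772 lower, or 4370 and 3002 without scaling factors, with the median then at 0.09. *Tnfsf14* (3.77, adjusted p 2.9e-13), *Tnfsf9* (2.19, adjusted p 4.1e-12) and *Ltb* (1.26, adjusted p 7.5e-06) were higher, and *Cd70*, with 4 UMIs, fell by 4.16 (adjusted p 1.2e-05). *Tnfsf4* and *Tnfsf10* were not called.

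Smaller groups were described without a test. The 205 activated cDC-like barcodes (92, 90 and 23) had *Tnfsf4* at 32.5, 44.1 and 76.6 CPM, the highest of any named group, and *Ltb* at 76.7, 79.4 and 79.5. *Tnfsf9* in them was 161, 110 and 114. *Cd70*, with 7, 20 and 3 UMIs, was 5.16, 14.7 and 8.51, below its cluster 8 level in each library. Of these barcodes 16.6% were among the highest doublet scores, beside 1.03% to 2.50% in the 3 groups tested. Without them *Tnfsf4* was 40.2, 67.4 and 87.0 CPM and *Ltb* 83.1, 104 and 87.0, and *Cd70* was 6.54, 7.49 and 6.45 from 7, 6 and 2 UMIs. The 364 T cell-like barcodes had *Ltb* at 369, 346 and 330 CPM and *Tnfsf10* at 32.2, 30.3 and 34.4, and *Tnf* at 17.8, 38.0 and 48.8. Their 6 T cell markers, led by *Trbc2* and all seen, summed to 3403, 3077 and 3594 CPM. By the naming rule, 6 of 7 NK cell markers and 5 of 5 markers of proliferating cells also stood out in this group. Leaving out the highest doublet scores, 18.7% of T cell-like barcodes, gave *Ltb* 501, 443 and 392, *Tnfsf10* 44.6, 40.7 and 46.4, and *Tnf* 21.2, 33.5 and 15.1 CPM. It left 3 of their 16 *Cd70* UMIs. *Tnf* was highest in 45 mast cell or basophil-like barcodes, with a mean of 476 CPM from 5, 34 and 6 barcodes.

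Between genotypes, 1 library each, values carry the exact Poisson 95% interval, which covers counting error only. *Cd70* in all cDC1s was 1.93 (1.48 to 2.47), 2.46 (1.87 to 3.18) and 0.559 (0.289 to 0.976) CPM. The *sGsn-/- Clec9a-/-* library lay below the other two, whose intervals overlapped. The ratio of the *sGsn-/-* to the *sGsn-/- Clec9a-/-* library was 4.40, and 2.07 with the 12 clusters weighted equally. Cluster 8, which held nearly all *Cd70* UMIs, made up 3.63% (2.90 to 4.47), 6.66% (5.52 to 7.95) and 3.21% (2.44 to 4.13) of cDC1s by the exact Clopper-Pearson interval. Within cluster 8 the intervals of *Cd70* were 46.9 to 78.1, 34.0 to 58.1 and 10.7 to 38.2 CPM, so the *sGsn-/- Clec9a-/-* value lay below the WT interval and its interval overlapped the *sGsn-/-* interval. The 133 *Cd70* UMIs lay in 50 cDC1s, with up to 9 in 1 cell. With cells carrying NK or T cell markers left out, they lay in 23, 19 and 6 cells. The Poisson intervals take UMIs of the same cell as independent and so can be too narrow.

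*Tnfsf9* was highest in the WT library, at 27.0 (25.2 to 28.8), 20.5 (18.7 to 22.4) and 22.4 (20.5 to 24.5) CPM. *Tnf* was 17.2 (15.8 to 18.7), 14.9 (13.3 to 16.5) and 19.7 (17.8 to 21.6). *Tnfsf10* was 0.979 (0.670 to 1.38), 1.91 (1.39 to 2.56) and 1.77 (1.25 to 2.43), lowest in WT. For these 3 and *Cd70*, 4 of 9 ligands, the intervals of the highest and the lowest library did not overlap, as for 27.5% of the 12014 genes with at least 29 UMIs, the count of the rarest ligand. With cells carrying NK or T cell markers left out, *Tnfsf10* no longer did so and 3 of 9 were left. The ratio of highest to lowest was above 1.5 for 5 of 9 ligands (*Tnfsf4*, *Tnfsf10*, *Tnfsf13b*, *Tnfsf14* and *Cd70*), beside 14.4% of those genes, and for 4 with equal weights of the clusters. These 5 had few UMIs in cDC1s, 29 of *Tnfsf14* to 133 of *Cd70*. For *Tnfsf4* the *sGsn-/-* library over the *sGsn-/- Clec9a-/-* library went from 1.82 to 0.909 with equal weights. Whether any of these differences follows the genotype was not tested.

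**Figure D3:**
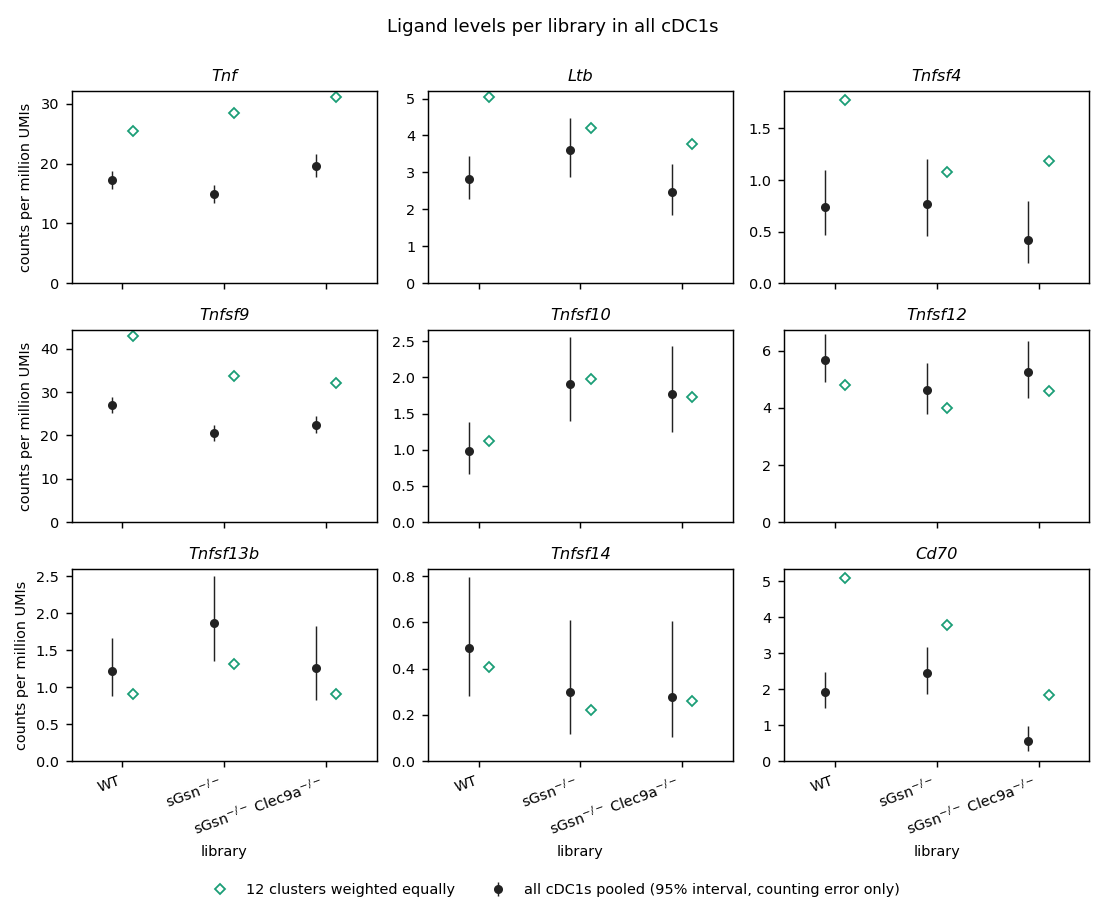
Level of each ligand (CPM, y axis) in all cDC1s of each library (x axis); filled points show all cells pooled with the exact Poisson 95% interval and open diamonds the mean over the 12 clusters weighted equally. The pooled *Cd70* level of the *sGsn-/- Clec9a-/-* library, 0.559 CPM, lay below both others.

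Over the 33 sums of 11 clusters in 3 libraries, 5 ligands had a mean of at least 2 CPM. They were set beside 6523 genes with a mean of at least 10 CPM, and the ranks below hold among these genes only. These sums share libraries and cells of like state, and the Pearson r of log2 levels is a description only. *Tnf* was most like *Maff* (0.82), *Gadd45b* (0.82) and *Tnfsf9* (0.81), and *Tnfsf9* most like *Nfkbia* (0.89), *Dusp2* (0.83) and *Tnf* (0.81). *Cd70*, which had a UMI in 5 of the 33 sums, 3 of them those of cluster 8, was most like *Fscn1* (0.98), *Tnfrsf4* (0.97) and *Cd63* (0.95). *Ltb* was most like *AA467197* (0.86), *S100a4* (0.84) and *Gbp2* (0.83), and *Tnfsf12*, at 0 in the sums of cluster 10, most like *Trim36* (0.83), *Pxk* (0.83) and *Dnase1l1* (0.82). The levels also went with the log2 depth of the sums, at r of 0.60 for *Tnfsf12*, −0.57 for *Tnf* and −0.55 for *Ltb*. For *Tnfsf9* it was −0.50 and for *Cd70* −0.25. How far depth shaped these likenesses was not tested.

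In build GRCm38, 5 of the 9 genes lie on chromosome 17. *Ltb* (ENSMUSG00000024399, chr17:35194439-35196320, plus strand) ends 3060 bases from *Tnf* (ENSMUSG00000024401, chr17:35199381-35202007, minus strand) with 0 genes between. *Tnfsf9* (ENSMUSG00000035678, chr17:57105325-57107757, plus strand) and *Cd70* (ENSMUSG00000019489, chr17:57145997-57149777, minus strand) lie 38239 bases apart, and *Tnfsf14* (ENSMUSG00000005824, chr17:57189492-57194177, minus strand) follows 39714 bases on. Neighbours did not share one pattern: *Tnf* peaked in cluster 9, while *Ltb* was higher in cluster 8 than in cluster 9, and *Cd70* and *Tnfsf9* were both high in cluster 8 and only *Tnfsf9* in cluster 9. The others were *Tnfsf4* (ENSMUSG00000026700, chr1:161395409-161418410, plus strand), *Tnfsf10* (ENSMUSG00000039304, chr3:27317028-27342427, plus strand), *Tnfsf13b* (ENSMUSG00000031497, chr8:10006467-10039072, plus strand) and *Tnfsf12* (ENSMUSG00000097328, chr11:69686250-69695849, minus strand).

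Promoter sequences from RefSeq (GRCm38.p6, 300 bases each, reading with the gene) were at hand for 5 ligands, *Tnf*, *Ltb*, *Tnfsf10*, *Tnfsf13b* and *Tnfsf14*, and not for *Tnfsf4*, *Tnfsf9*, *Tnfsf12* and *Cd70*. Both strands were searched for the NF-kB motif GGGNNNNNCC, present in 50.8% of 32851 promoters, the interferon-stimulated response element GAAANNGAAA (3.44%) and the AP-1 motif TGANTCA (7.81%). *Tnf* held 2 matches of the first and *Ltb* held 4, of which 3 overlap. *Tnfsf14* held 4 of the first and 1 AP-1 match, *Tnfsf13b* held 1 AP-1 match and, in the window of its second start, 1 interferon motif, and *Tnfsf10* held none of the 3. The promoters of the neighbours *Tnf* (chr17:35201958-35202257, minus strand) and *Ltb* (chr17:35194257-35194556, plus strand), both higher in cluster 8, are printed with the NF-kB matches in capitals; a match is a stretch of letters, not a measured site.
Tnf: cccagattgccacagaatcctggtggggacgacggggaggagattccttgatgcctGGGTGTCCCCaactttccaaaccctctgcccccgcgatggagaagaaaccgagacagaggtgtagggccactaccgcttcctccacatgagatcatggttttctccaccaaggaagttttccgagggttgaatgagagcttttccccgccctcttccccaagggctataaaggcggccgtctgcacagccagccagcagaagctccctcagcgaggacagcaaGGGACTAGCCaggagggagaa
Ltb: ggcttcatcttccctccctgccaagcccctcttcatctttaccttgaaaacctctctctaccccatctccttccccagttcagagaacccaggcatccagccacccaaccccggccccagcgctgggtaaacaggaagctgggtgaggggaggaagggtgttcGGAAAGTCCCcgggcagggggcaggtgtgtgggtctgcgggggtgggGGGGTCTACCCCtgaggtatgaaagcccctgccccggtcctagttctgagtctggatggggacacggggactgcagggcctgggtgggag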

How the data were processed

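RNA was measured by droplet single-cell sequencing in 3 libraries. Per the file headers and the labels, the authors made the deposited raw counts with Cell Ranger 6.0.1 on mm10, as UMIs per gene and barcode without normalisation. The authors' processing notes name Seurat 4.0.0, and their deposited table gives each cDC1's library, cluster and UMI count. Counts were summed here per library and cluster (clusters 0 to 10, 33 sums; cluster 11, rich in mitochondrial transcripts, was left out) or per library and group, and fitted in R 4.3.3 with edgeR 4.0.16 (TMM, filterByExpr, quasi-likelihood F-test, two-sided, Benjamini-Hochberg over all genes, threshold 0.05).

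Barcodes with fewer than 200 genes (54) or a mitochondrial share above 17.51% (1213) were removed from the 30209, leaving 28942, which were grouped in Python 3.11.15 by the Leiden method (leidenalg 0.10.2 through scanpy 1.11.5; 2000 variable genes, 50 components, 20 neighbours, resolution 1). Groups were named from marker lists by a rule that was amended after a first look at the clusters. Scrublet's automatic threshold called 0 barcodes, so the highest 6% of scores in each library (766, 490 and 556) were left out as an alternative.

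Intervals came from scipy 1.17.1. The alternatives were no TMM, DESeq2 1.42.0, every gene with at least 1 count, 1 library fewer at a time, a library block, only the clusters compared, thinning to 3900 UMIs with shallower cells left out (288 of the cDC1s), coarser groups (resolution 0.5), doublet scores, and cells with 3 or more UMIs of NK or T cell markers left out (105 cDC1s, 1.81%). Libraries stood as replicates of a cluster. Deviations of a library from the group means, taken over genes, correlated between the groups compared at r of 0.0257 to 0.512 among clusters and 0.168 to 0.462 among groups.

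The ligands and gene lists were chosen with earlier results of these data known. Named were all 9 ligands, their receptors, up to 6 called genes with the largest change per list in clusters 8 and 9, and the 3 genes most like each ligand. The span of *Tnfsf12* overlaps that of a read-through gene that the matrices do not hold, so reads of both cannot be told apart.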

Additional observations from a re-analysis of the deposited data

How the results depend on the processing

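Of 41 calls of ligands, 35 kept their direction and their side of the threshold under every alternative that could be run for them, among them *Cd70*, *Tnfsf4*, *Tnfsf9*, *Tnf* and *Ltb* in cluster 8 and *Tnf* and *Tnfsf9* in cluster 9. *Tnfsf4*, *Tnfsf10* and *Tnfsf12* had no thinned test between clusters, and *Tnfsf10* in cluster 8, *Tnfsf4* in cluster 7, and *Tnfsf4* and *Ltb* between clusters 8 and 9 had none on only the clusters compared. The comparisons of NK cell-like, cDC2-like and monocyte or macrophage-like barcodes with cDC1s had no thinned test. They also had none without cells carrying NK or T cell markers. The 6 others were *Tnfsf10* in cluster 8, *Tnfsf12* in cluster 10 (also with DESeq2, adjusted p 0.0531), *Tnfsf4* in cluster 7, *Tnfsf9* in early cells, *Ltb* between clusters 8 and 9, and *Tnfsf10* in cDC2-like barcodes, which turned to 0.0435 on the log2 scale at Leiden resolution 0.5. The cause was not tested. Of 28 ligand comparisons not called, 2 passed the threshold in 1 alternative each, *Tnf* in cluster 10 and *Tnfsf10* in monocyte or macrophage-like barcodes, both with no filter on low counts.

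Thinning to 3900 UMIs, with shallower cells left out, lowered the number of genes called against resting cells to 2759 in cluster 8, 276 in cluster 9, 690 in cluster 10, 1094 in cluster 7 and 2804 in early cells, and to 1828 between clusters 8 and 9; fewer cells and counts were left to test. With a library left out, and so fewer samples, the counts ranged from 325 to 454 in cluster 9, from 1109 to 1182 in cluster 10 and from 1416 to 1917 in cluster 7. The library as a replicate block gave 4764 in cluster 8 and 669 in cluster 9 and changed no call of a ligand. Levels with the 12 clusters weighted equally moved beyond their counting intervals in 15 of 27 values. *Tnfsf13b* and *Tnfsf14* were removed by the filter of the main fit of clusters, and 0 UMIs in the 76 cells of cluster 10 allows, at 3 counts, up to 3.95% of cells with a UMI. The 3 libraries, 1 pool each, do not separate genotype from pool.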
